A study of Mus musculus with 18 samples.

Results

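The 8 genes described here encode the effectors and regulators of heat production in brown fat: Ucp1, Dio2, Ppargc1a, Ppargc1b, Prdm16, Irf4, Ebf2 and Zfp516. They were taken by gene symbol from a count table of 17672 genes, where each has 1 row. The table covers 18 RNA-seq libraries from an immortalised mouse brown adipocyte line, in 6 groups with 3 replicates each. All groups carry a stable shRNA against Abhd5, whose product activates the lipase ATGL, together with a doxycycline (Dox)-inducible ABHD5 that resists the shRNA and bears an mCherry tag. In 3 groups no Dox was given (genotype label ABHD5 KD), and for 3 h the cells received DMSO as vehicle, 10 nM isoproterenol (ISO, a β-adrenergic agonist) or 20 µM SR-3420 (a ligand of ABHD5 that starts lipolysis without the agonist). The other 3 groups had the same stimulations after 1 µg/ml Dox (genotype label WT), given for 24 to 48 h by the labels and for 24 h by the study's description of this experiment. No group had Dox without the inducible ABHD5, so Dox itself and restored ABHD5 cannot be told apart, and the preadipocytes of this line were differentiated with indomethacin added at the start.

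In brown adipocytes, noradrenaline acts through β-adrenergic receptors, cAMP and protein kinase A on 2 arms at once. It releases fatty acids by lipolysis, which fuel and activate the uncoupling protein UCP1 in the inner mitochondrial membrane, and it induces the genes of the thermogenic programme. DIO2 converts thyroxine to active thyroid hormone inside the cell, PGC-1α and PGC-1β (Ppargc1a, Ppargc1b) are transcriptional coactivators of mitochondrial biogenesis and oxidative metabolism, and PRDM16, IRF4, EBF2 and ZFP516 are nuclear factors that set brown fat identity or drive Ucp1.

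The libraries held between 689910 and 1956565 counts each (median 1145729). The 10 most abundant genes held 16.3% to 26.5% of the counts in 17 libraries but 35.6% in SR-3420 with Dox replicate 1, so calls of the 8 genes that include this library are also given without it. Abhd5 matched the labels: its level was 52.1 ± 4.67 CPM (counts divided by the TMM-scaled library size in units of 1e6 counts; SD, n = 3) in DMSO without Dox and 569 ± 85.3 CPM in DMSO with Dox, a log2 difference of 3.46. The rescue construct is a coding sequence, and which part of this rise came from its reads was not tested. Of the 7 adipocyte markers in the table, 6 (such as Adipoq, Plin1 and Lpl) were at 189 CPM or more in every library and Fabp4 ran from 10.0 to 247 CPM. Their summed level ran from 2996 to 3664 CPM in DMSO without Dox, 3892 to 3973 in ISO without Dox, 4511 to 4871 in SR-3420 without Dox, 3701 to 4208 in DMSO with Dox, 6231 to 6404 in ISO with Dox and 5391 to 6740 in SR-3420 with Dox. The part of this rise in the results below was not tested. Of the 5 skeletal muscle markers, Myod1, Myf5 and Myog had 0 counts in every library, while Ckm had 8 counts and Acta1 had 9 over all libraries. The 5 summed to between 0.986 and 3.49 CPM in SR-3420 with Dox and to at most 1.56 CPM in each library of the other groups, and the 3 macrophage markers summed to between 2.24 and 16.7 CPM. The 6 preadipocyte markers summed to between 142 and 166 CPM in DMSO without Dox, 103 and 108 CPM in ISO without Dox, and 104 and 172 CPM in the other groups. The 4 endothelial markers summed to between 17.2 and 25.6 CPM in the ISO groups and 5.30 and 16.1 CPM in the others, most of it Tek, while Kdr had 1 count and Cdh5 had 6 over all libraries. Their part in the ISO results was not tested. These are bulk samples, in which fewer cells of a type and less RNA per cell cannot be told apart.

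Because ISO acts through cAMP, the 250 bases before the start in the table were searched for 7 of the 8 genes on both strands of the mouse genome build mm9 for the full cAMP response element TGACGTCA and its first part TGACG, which lies inside it on either strand. TGACGTCA was found before Ppargc1a alone among the 7 genes, starting 84 bases before its start, and in 2.24% of all 17672 such windows. TGACG was found at 147 bases before the start of Ucp1 and at 84 and 81 bases before that of Ppargc1a, and in 22.5% of all windows. The sequences of both are shown, 5′ to 3′ on the strand of the gene, with each TGACG match in capitals, since in cells with Dox Ucp1 and Ppargc1a had the largest responses to ISO among the members tested. They lie at chr8:85813997-85814246 (plus) and chr5:51945161-51945410 (minus).
Ucp1: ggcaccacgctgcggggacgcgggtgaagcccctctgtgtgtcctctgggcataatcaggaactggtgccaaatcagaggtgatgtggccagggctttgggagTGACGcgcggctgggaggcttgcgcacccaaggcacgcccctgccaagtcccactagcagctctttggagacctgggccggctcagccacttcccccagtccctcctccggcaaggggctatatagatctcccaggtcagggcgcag
Ppargc1a: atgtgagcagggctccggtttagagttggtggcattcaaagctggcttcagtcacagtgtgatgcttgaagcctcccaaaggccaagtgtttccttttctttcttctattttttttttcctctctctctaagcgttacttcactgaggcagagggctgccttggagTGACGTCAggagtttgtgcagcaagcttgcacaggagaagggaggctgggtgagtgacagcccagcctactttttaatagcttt
The DR1 element of PPARs with RXR, searched as 2 direct copies of AGGTCA with 1 base of any kind between them, was found before none of the 7 genes and in 0.0566% of windows, and TATAAA was found before Irf4 alone, in 9.12% of windows. The window before the RefSeq start on GRCm38.p6 had the same bases for Ucp1 and Prdm16 and other bases for Ppargc1a, Dio2 and Irf4. In the RefSeq windows of 300 bases (250 before the start and 50 from it on), held here for 5 of the 8 genes, TGACGTCA was found before Dio2 alone, at 95 bases, and not before Ppargc1a. TGACG was found in these windows at 147 bases before the start of Ucp1, 49 before that of Ppargc1a and 95 and 92 before that of Dio2. A match in letters is a description and not a measured binding site.

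The counted length in the table was within 10% of the annotated intron length for 66.5% of genes and within 10% of the exon length for 2.48%, whereas the study's methods name a gene option of the counting tool. Which bases entered each row, and so the share of unspliced RNA in the counts, was not resolved, and levels per kilobase rest on the deposited length. For Ebf2 and Ppargc1a it was shorter than the 192134 and 106836 annotated intron bases. Ucp1 (NM_009463, chromosome 8, 85814247 to 85822355, plus strand, mm9) was counted over 6465 bases, which equals its span less 1644 annotated exon bases, and Dio2 (NM_010050, chromosome 12, 91962992 to 91976878, minus strand) over 8072 bases. Ppargc1a (NM_008904, chromosome 5, 51845488 to 51945160, minus strand) was counted over 84441 bases and Ppargc1b (NM_133249, chromosome 18, 61457790 to 61560085, minus strand) over 95856. Prdm16 (NM_001177995, chromosome 4, 153690234 to 154010982, minus strand) had 300498 counted bases and Irf4 (NM_013674, chromosome 13, 30841127 to 30858796, plus strand) had 12987. Ebf2 (NM_001276387, chromosome 14, 67852129 to 68049789, plus strand) had 108805 counted bases of a span of 197661, and Zfp516 (NM_183033, chromosome 18, 83080271 to 83174706, plus strand) had 82633. Annotated genes on the other strand overlap Dio2, Ppargc1b, Prdm16 and Ebf2, and a miRNA gene on the same strand overlaps Zfp516, so without strand in the counting their values may include reads of the neighbour. Ucp1, Ppargc1a and Irf4 overlap no other annotated gene.

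Dio2 had 0 counts in 18 of 18 libraries. Over all libraries together, 0 counts allow a level of up to 0.139 CPM, and in single libraries of up to 1.43 to 4.05 CPM, for counting error only. In ISO with Dox, where the other thermogenic genes were highest, the limit over the 3 libraries was 0.105 CPM per kilobase of counted sequence. Of the 17672 genes, 1699 (9.61%) were at 0 in every library, as were 98 of the 861 genes (11.4%) whose counted length was within 10% of that of Dio2. Dio2 could not be tested. Its counted length equals that of its annotated introns (8072 bases), and whether reads in its exons were counted was not resolved.

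Ucp1 was near 0 counts in DMSO and was read almost entirely after ISO. The 3 DMSO libraries without Dox had 1, 0 and 0 counts and the 3 with Dox had 1, 1 and 1. Under ISO the counts were 94, 24 and 114 without Dox, and 347, 171 and 311 after Dox. Under SR-3420 they were 3, 0 and 2, and 5, 0 and 2 after Dox. No ISO library overlapped any other library, and the ISO libraries with Dox all lay above those without.

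Scaled by library size, Ucp1 stood at 69.8 ± 40.8 CPM (SD, n = 3) in ISO without Dox and at 240 ± 91.8 CPM in ISO with Dox. From the summed counts, ISO against DMSO was 202-fold without Dox (95% exact counting interval 36.0 to 8026) and 310-fold with Dox (106 to 1506). The single read in DMSO without Dox sits in replicate 1, and without that library the ISO level was at least 40.8-fold higher, taking 3 counts as the floor of the group. Between the ISO groups, the level with Dox was 3.33-fold that without Dox by summed counts (2.87 to 3.87), and by edgeR the log2 fold change was 1.77 ± 0.29 (SE, adjusted p = 7.19e-05). SR-3420 against DMSO had a ratio of 3.01 without Dox (0.337 to 143) and of 2.92 with Dox (0.666 to 17.5), or 1.30 (0.109 to 11.4) without SR-3420 with Dox replicate 1, and all 3 intervals include 1. Against SR-3420, ISO was 106-fold higher with Dox (51.4 to 265), which became 238-fold (65.6 to 1965) without SR-3420 with Dox replicate 1, the library with 5 of the 7 SR-3420 reads.

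**Figure D1:**
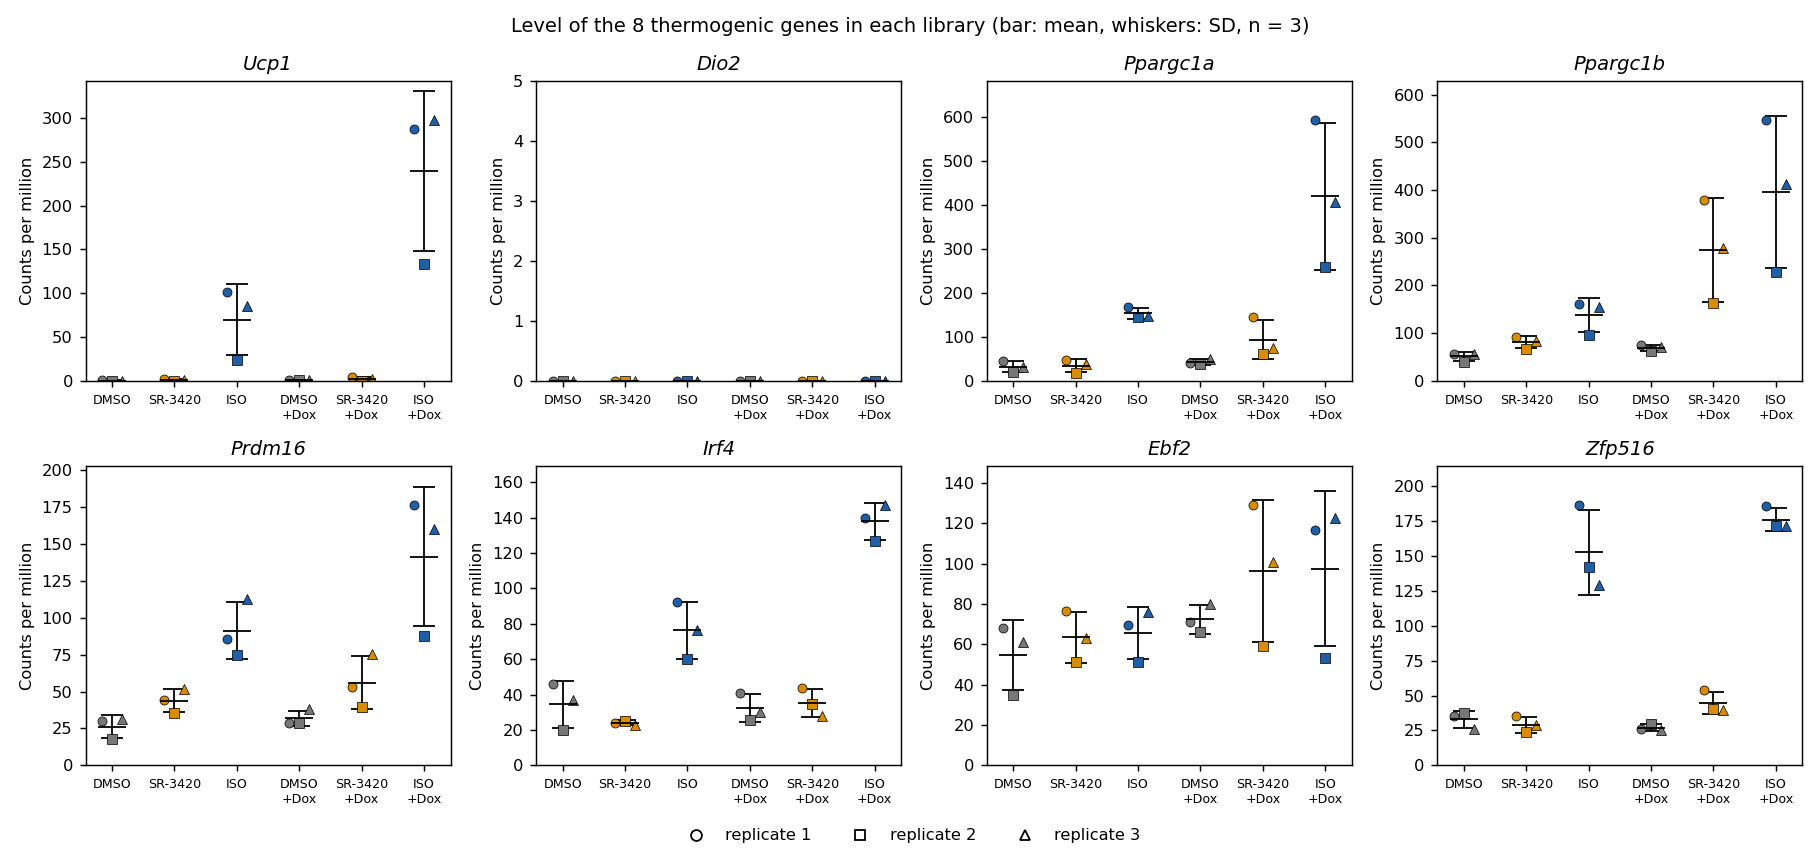
Level of each of the 8 genes in the 18 libraries, in CPM on a linear axis that starts at 0 and differs between panels. Points are libraries (shape, replicate number), bars are group means and whiskers the SD (n = 3). Ucp1 left the baseline in the ISO groups, Dio2 stayed at 0 throughout, and Ebf2 had groups that overlapped.

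Both PGC-1 coactivators were well above 0 in DMSO and rose with ISO, and the coactivator PGC-1β also rose strongly with SR-3420 in cells with Dox. Ppargc1a, the cold- and cAMP-inducible coactivator, stood at 44.1, 20.2 and 32.2 CPM in the 3 DMSO libraries without Dox and at 41.5, 38.2 and 50.1 CPM with Dox. ISO gave 167, 145 and 148 CPM without Dox and 593, 259 and 408 CPM with Dox. SR-3420 gave 47.2, 19.0 and 37.4 CPM without Dox and 145, 61.1 and 75.3 CPM with Dox. The ISO libraries lay above all DMSO libraries, and those with Dox above those without. In cells with Dox the SR-3420 libraries lay above those in DMSO, the lowest at 61.1 CPM against a highest of 50.1 CPM, and in cells without Dox they overlapped them.

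Ppargc1b, the related coactivator, stood at 56.5, 40.5 and 56.3 CPM in DMSO without Dox and at 74.9, 61.9 and 70.2 CPM in DMSO with Dox. ISO gave 162, 96.5 and 154 CPM without Dox and 547, 229 and 413 CPM with Dox. SR-3420 gave 92.7, 66.8 and 84.1 CPM without Dox and 380.0, 163 and 279 CPM with Dox. The SR-3420 libraries with Dox were all above the ISO libraries without Dox (lowest 163 CPM against a highest of 162 CPM), and they overlapped the ISO libraries with Dox.

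Among the DNA-binding regulators, Prdm16, Irf4 and Zfp516 rose with ISO in both states, and Ebf2 did not pass the test. Prdm16, which with its partners sets brown against muscle fate, stood at 30.01, 17.5 and 31.2 CPM in DMSO, 85.8, 74.8 and 113 CPM in ISO and 44.3, 35.7 and 51.4 CPM in SR-3420 without Dox. With Dox it stood at 28.6, 28.9 and 37.9 CPM in DMSO, 176, 87.6 and 159.8 CPM in ISO and 53.3, 39.4 and 75.3 CPM in SR-3420. Its SR-3420 libraries lay above the DMSO libraries in both states, the lowest at 39.4 CPM against a highest of 37.9 CPM with Dox.

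Irf4, a cAMP-induced factor that partners PGC-1α, stood at 45.9, 20.2 and 37.2 CPM in DMSO without Dox and at 41.1, 25.8 and 30.1 CPM with Dox. ISO gave 92.3, 60.1 and 76.8 CPM without Dox and 140.0, 127 and 147 CPM with Dox, and these groups did not overlap. SR-3420 gave 24.2, 25.3 and 22.6 CPM without Dox and 43.7, 34.5 and 27.7 CPM with Dox, both overlapping DMSO of the same state.

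Zfp516, a cold-induced activator of Ucp1, stood at 35.3, 37.8 and 26.2 CPM in DMSO without Dox and at 25.8, 29.9 and 25.6 CPM with Dox. ISO gave 187, 142 and 129 CPM without Dox and 186, 171 and 171 CPM with Dox. SR-3420 gave 35.1, 23.6 and 28.8 CPM without Dox and 54.2, 40.4 and 39.6 CPM with Dox. The ISO groups of Zfp516 overlapped each other, unlike those of Ucp1, Ppargc1a, Ppargc1b and Irf4. Its SR-3420 libraries lay above DMSO in cells with Dox and overlapped it in cells without.

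Ebf2, a factor that marks brown precursor cells and opens brown fat genes with PPARγ, had the flattest profile, from 35.1 to 68.0 CPM in DMSO without Dox, 51.2 to 76.1 in ISO without Dox, 51.3 to 76.6 in SR-3420 without Dox, 66.0 to 80.2 in DMSO with Dox, 53.2 to 122 in ISO with Dox and 59.2 to 129 CPM in SR-3420 with Dox. In the order of its group means every neighbouring pair overlapped, as it did for Prdm16. ISO with Dox was the highest group of all 7 genes that had counts. For Ucp1, Ppargc1a, Prdm16, Irf4 and Zfp516 ISO without Dox came next, while for Ppargc1b and Ebf2 it was SR-3420 with Dox.

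To ask how β-adrenergic stimulation acted in each ABHD5 state, ISO was compared with DMSO using the quasi-likelihood test of edgeR, with p-values adjusted by Benjamini-Hochberg over 10178 genes. A gene passed where its adjusted p was at most 0.05. Of the 8 genes, 7 were tested, since Dio2 did not pass the filter on low counts. Without Dox, 6 of the 7 rose, against 14.5% of all genes tested. They were Ucp1 (adjusted p = 1.58e-07), Zfp516 (log2 fold change 2.20 ± 0.19, SE, adjusted p = 4.61e-10), Ppargc1a (2.20 ± 0.32, adjusted p = 7.08e-06), Prdm16 (1.76 ± 0.27), Ppargc1b (1.41 ± 0.30) and Irf4 (1.09 ± 0.22, adjusted p = 0.000456). Ebf2 differed by 0.23 ± 0.28 (adjusted p = 0.587). The median over the tested members was 1.76, and over all genes tested it was -0.01. Of the 7 adipocyte markers, 1 was higher and 1 lower.

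With Dox the same 6 of 7 rose, against 16.4% of all genes, with Ucp1 at an adjusted p of 5.53e-12. Ppargc1a rose by 3.28 ± 0.29 (9.73-fold, adjusted p = 4.62e-10), Zfp516 by 2.70 ± 0.18 (6.51-fold), Ppargc1b by 2.50 ± 0.26 (5.66-fold), Prdm16 by 2.17 ± 0.24 (4.49-fold) and Irf4 by 2.02 ± 0.20 (4.06-fold). Ebf2 differed by 0.42 ± 0.25 (adjusted p = 0.216). With the replicate number as a block, Ebf2 also passed at 0.43 ± 0.16 (adjusted p = 0.027), and it passed at 0.75 (adjusted p = 0.0138) without ISO with Dox replicate 2. The median over the tested members was 2.50 and over all genes -0.02, and 7 of the 7 adipocyte markers were higher.

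SR-3420 starts lipolysis through ABHD5 and was compared with DMSO at its single dose of 20 µM, which differs from the 10 nM of ISO. Without Dox, 0 of the 7 tested genes passed in edgeR, against 0.766% of all genes in either direction, and 0 passed in DESeq2. At an unadjusted p under 0.05 there were 3: Ppargc1b (0.64 ± 0.30, adjusted p = 0.529), Prdm16 (0.69 ± 0.29, adjusted p = 0.456) and Irf4, in the lower direction (-0.56 ± 0.25, adjusted p = 0.476). Of all 10178 genes, 893 were under this cut. With the replicate number as a block, Ppargc1b (0.70 ± 0.17, adjusted p = 0.0137) and Prdm16 (0.73 ± 0.20, adjusted p = 0.0413) passed. In this fit 197 of all 10178 genes were higher and 41 lower. Of the 7 adipocyte markers 3 were higher without the block, with a median over the 7 of 0.49 against -0.003 for all genes, and their part in these values was not tested.

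With Dox, SR-3420 raised 4 of the 7 genes, against 6.53% of all genes. Ppargc1b rose by 1.98 ± 0.27 (3.94-fold, adjusted p = 5.93e-06). Ppargc1a rose by 1.14 ± 0.31 (2.20-fold, adjusted p = 0.0166), Prdm16 by 0.84 ± 0.27 (adjusted p = 0.0456) and Zfp516 by 0.74 ± 0.21 (adjusted p = 0.0222). Ebf2 differed by 0.42 ± 0.26 (adjusted p = 0.347) and Irf4 by 0.07 ± 0.24 (95% confidence interval -0.42 to 0.56). The median over the tested members was 0.84, with all genes at -0.01, and 5 of the 7 adipocyte markers were higher.

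The call of Ppargc1b held with any 1 library of the comparison left out, and those of the other 3 genes did not. Without SR-3420 with Dox replicate 1, Ppargc1a was 0.67 (adjusted p = 0.249), Zfp516 was 0.57 (adjusted p = 0.169) and Prdm16 was 0.88 (adjusted p = 0.0883), which left Ppargc1b (1.67, adjusted p = 0.000128) as the 1 member that passed. Ppargc1a also missed without DMSO with Dox replicate 1 or 2 (adjusted p = 0.0772 and 0.0528) and Zfp516 without DMSO with Dox replicate 1 or 3 (adjusted p = 0.109 and 0.065). Prdm16 missed without DMSO with Dox replicate 1, 2 or 3 (adjusted p = 0.187, 0.106 and 0.055) and without SR-3420 with Dox replicate 3 (adjusted p = 0.276). With DESeq2 Ppargc1a missed (adjusted p = 0.0748), and with scaling by library totals Prdm16 (0.65, adjusted p = 0.125) and Zfp516 (0.53, adjusted p = 0.133) missed.

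**Figure D2:**
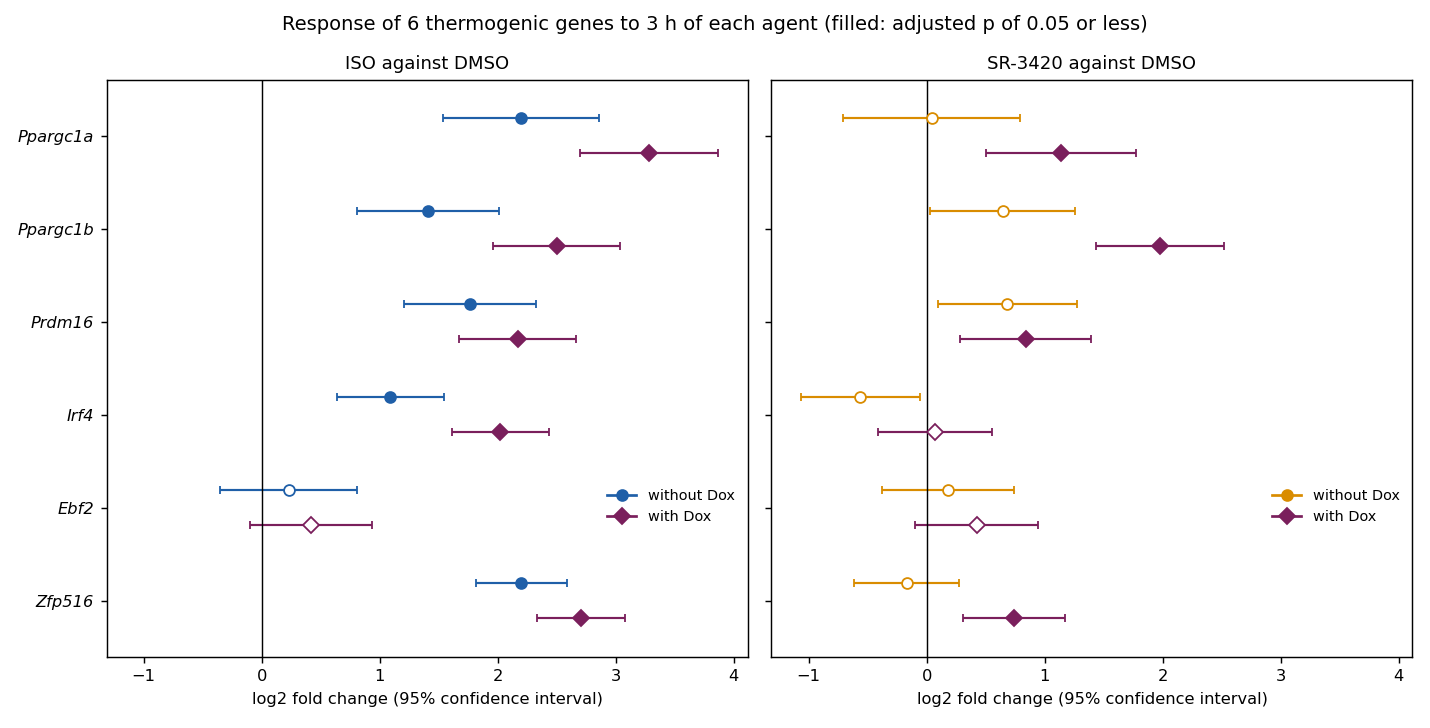
log2 fold change of the 6 other tested genes after ISO (left) and SR-3420 (right) against DMSO, without Dox (circles) and with Dox (diamonds), with 95% confidence intervals. Filled symbols had an adjusted p of at most 0.05: 5 of 6 in each ISO comparison, 0 of 6 for SR-3420 without Dox and 4 of 6 with Dox.

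To ask how levels differed after Dox, cells with Dox were compared with cells without Dox under each stimulation. Restored ABHD5 and Dox itself cannot be told apart in these comparisons. In DMSO 0 of the 7 tested genes passed in edgeR, against 1.18% of all genes in either direction, and 0 passed in DESeq2. At an unadjusted p under 0.05 there were 0, against 1000 of all 10178 genes. Of the 7 adipocyte markers 1 was higher. For Ucp1 the summed counts were 3 and 1, a ratio of 2.17 (0.174 to 114). Among the other 6 genes, the differences lay between -0.29 ± 0.23 for Zfp516 and 0.43 ± 0.31 for Ppargc1b. The 95% confidence interval was -0.39 to 1.11 for Ppargc1a, -0.21 to 1.06 for Ppargc1b and -0.57 to 0.41 for Irf4, so differences of 2-fold were not excluded for the coactivators.

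In ISO 4 of the 7 genes were higher with Dox, against 7.92% of all genes. Beside Ucp1, these were Ppargc1b (1.52 ± 0.25, 2.87-fold, adjusted p = 5.66e-05), Ppargc1a (1.45 ± 0.25, 2.74-fold, adjusted p = 0.000127) and Irf4 (0.85 ± 0.18, 1.81-fold, adjusted p = 0.0016). Each of the 4 passed with any 1 library left out, and 6 of the 7 adipocyte markers were higher with Dox. Prdm16 was at 0.61 ± 0.21 (adjusted p = 0.0584), and it passed with the replicate block (0.62 ± 0.14, adjusted p = 0.00106), without ISO without Dox replicate 3 (0.82, adjusted p = 0.0313) and without ISO with Dox replicate 2 (0.89, adjusted p = 0.00197). Ebf2 was at 0.55 ± 0.26 (adjusted p = 0.178) and passed with the block (0.53 ± 0.16, adjusted p = 0.0155) and without ISO with Dox replicate 2 (0.88, adjusted p = 0.0114). Zfp516 was at 0.22 ± 0.15 with a 95% confidence interval of -0.09 to 0.52.

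In SR-3420 3 of the 7 genes were higher with Dox, against 7.26% of all genes: Ppargc1b (1.76 ± 0.26, 3.38-fold, adjusted p = 1.67e-05), Ppargc1a (1.46 ± 0.31, 2.75-fold, adjusted p = 0.00182) and Zfp516 (0.62 ± 0.20, adjusted p = 0.0418). Ppargc1b passed with any 1 library left out, with 1.45 (adjusted p = 0.000342) when SR-3420 with Dox replicate 1 was left out, and 4 of the 7 adipocyte markers were higher with Dox. Ppargc1a was 0.99 (adjusted p = 0.0529) without SR-3420 with Dox replicate 1. Zfp516 was 0.46 without that library (adjusted p = 0.24), 0.48 without SR-3420 without Dox replicate 2 (adjusted p = 0.181) and 0.61 without SR-3420 without Dox replicate 3 (adjusted p = 0.093). Zfp516 also missed with library totals (0.38, adjusted p = 0.242), without the filter on low counts (0.59, adjusted p = 0.0574) and with DESeq2 (0.62, adjusted p = 0.0739). Ebf2 was at 0.61 ± 0.25 (adjusted p = 0.125) and passed at 0.87 (adjusted p = 0.0234) without SR-3420 with Dox replicate 2, and Irf4 was at 0.56 ± 0.24 (adjusted p = 0.146). Without SR-3420 with Dox replicate 1 they were 0.34 and 0.37.

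**Figure D3:**
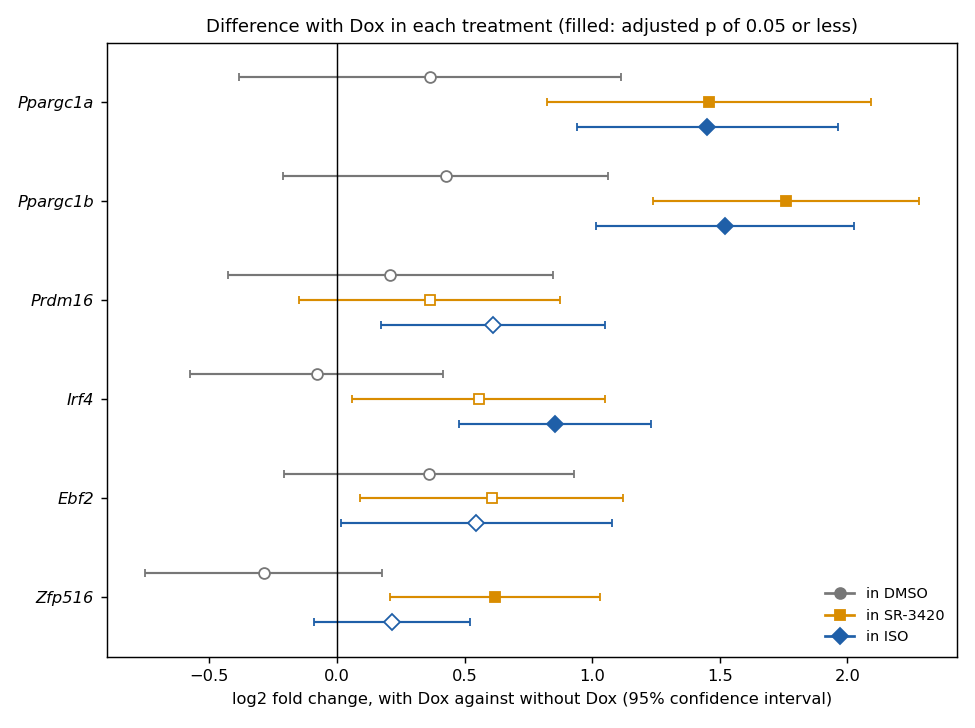
log2 fold change with Dox against without Dox for 6 genes, measured in DMSO (circles), SR-3420 (squares) and ISO (diamonds), with 95% confidence intervals. Filled symbols had an adjusted p of at most 0.05. All intervals in DMSO include 0, and the coactivators Ppargc1a and Ppargc1b passed under both stimulations.

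Whether a response itself differed between the states was tested as the interaction, the response with Dox less the response without Dox on the log2 scale. For ISO, 0 of the 7 genes passed in edgeR, against 2.18% of all genes in either direction, and 0 passed in DESeq2. At an unadjusted p under 0.05 there were 3: Ppargc1b (1.09 ± 0.40, adjusted p = 0.163), Ppargc1a (1.09 ± 0.45, adjusted p = 0.234) and Irf4 (0.93 ± 0.30, adjusted p = 0.107). Of all 10178 genes, 1436 were under this cut. With the replicate number as a block the same 3 members passed: Ppargc1b at 1.07 ± 0.22 (adjusted p = 0.00147), Ppargc1a at 1.06 ± 0.28 (adjusted p = 0.0142) and Irf4 at 0.95 ± 0.26 (adjusted p = 0.0175). In this fit 414 of all 10178 genes were higher and 186 lower. Of the 7 adipocyte markers, 3 had a higher interaction in the fit without the block (median of the 7 0.68, all genes -0.01), and their part in these values was not tested. Ppargc1b also passed without ISO with Dox replicate 2 (1.39, adjusted p = 0.0213) and Irf4 without DMSO without Dox replicate 2 (1.16, adjusted p = 0.0322). Zfp516 was at 0.50 ± 0.27, Prdm16 at 0.40 ± 0.38 and Ebf2 at 0.19 ± 0.38. For Ucp1, whose DMSO groups held 1 and 3 counts, the interaction could not be resolved at this depth.

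For SR-3420 the interaction also passed for 0 of the 7 genes in edgeR, against 0.757% of all genes in either direction, and for 0 in DESeq2. The 3 at an unadjusted p under 0.05 were Ppargc1b (1.33 ± 0.41, adjusted p = 0.124), Zfp516 (0.91 ± 0.30, adjusted p = 0.172) and Ppargc1a (1.09 ± 0.48, adjusted p = 0.353). Of all 10178 genes, 1227 were under this cut. With the replicate number as a block, Ppargc1b (adjusted p = 0.000527), Ppargc1a (adjusted p = 0.0297) and Zfp516 (adjusted p = 0.0469) passed, with 215 of all genes higher and 124 lower. In this comparison not every same-numbered pair of libraries correlated at r over 0.1. Without the block, Ppargc1b passed without SR-3420 with Dox replicate 2 (1.61, adjusted p = 0.0348), and it was 1.02 (adjusted p = 0.324) without SR-3420 with Dox replicate 1. Without the latter library Ppargc1a was 0.63, Zfp516 was 0.74 and Prdm16 was 0.20. Prdm16, which passed for SR-3420 with Dox and not without, had an interaction of 0.15 ± 0.40 (95% confidence interval -0.67 to 0.97), so its responses in the 2 states were not shown to differ. The interaction passed for 0 of the 7 adipocyte markers (median 0.30).

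The 2 stimuli, whose doses differ, were compared directly in cells with Dox. ISO was higher than SR-3420 for 5 of the 7 genes, against 10.4% of all genes. Beside Ucp1 these were Ppargc1a (2.15 ± 0.26, 4.42-fold, adjusted p = 6.09e-07), Zfp516 (1.97 ± 0.17, 3.90-fold), Irf4 (1.95 ± 0.20, 3.87-fold) and Prdm16 (1.33 ± 0.23, 2.51-fold, adjusted p = 0.000104). Without SR-3420 with Dox replicate 1 these 4 lay between 1.31 and 2.64 and passed. Ppargc1b differed less, at 0.53 ± 0.23 (1.44-fold, adjusted p = 0.116). It passed with the block (0.52 ± 0.12, adjusted p = 0.000545), without ISO with Dox replicate 2 (0.83, adjusted p = 0.00629) and without SR-3420 with Dox replicate 1 (0.86, adjusted p = 0.0176). Ebf2 was at -0.01 ± 0.25, with a 95% confidence interval of -0.52 to 0.50, and 1 of the 7 adipocyte markers was higher in ISO.

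Levels of different genes were compared per kilobase of counted sequence. In ISO with Dox the order was Ucp1 (37.1 ± 14.2 CPM per kilobase), Irf4 (10.6 ± 0.80), Ppargc1a (4.97 ± 1.98), Ppargc1b (4.14 ± 1.66), Zfp516 (2.13 ± 0.10), Ebf2 (0.896 ± 0.353), Prdm16 (0.47 ± 0.16) and Dio2 at 0. In DMSO without Dox Irf4 was highest (2.65 ± 1.01), the coactivators, Ebf2 and Zfp516 lay between 0.381 and 0.533, Prdm16 was at 0.0873 and Ucp1 at 0.0455 CPM per kilobase. The level of Ucp1 there rests on 1 read, and in DMSO with Dox Ucp1 (0.135) and Prdm16 (0.106) were the 2 lowest of the 7 genes with counts.

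Likeness of profile was described by Pearson's r of log2 CPM over the 18 libraries, which share treatments and replicate numbers, with no test. Among members, Ucp1 was most like Zfp516 (r = 0.958) and Irf4 (0.934), and Ppargc1a was like Ucp1 (0.928) and Prdm16 (0.918). Ebf2 was most like Ppargc1b (0.753) and least like Zfp516 (0.261). Over all tested genes, the closest to Ucp1 were Tpcn2 (0.976), Adcy3 (0.973) and Csrp2 (0.973), to Ppargc1a Slc22a15 (0.966), Elmod2 (0.954) and Ghitm (0.954), and to Ppargc1b Irs2 (0.965), March5 (0.964) and Vegfa (0.964). The closest to Prdm16 were Dnajc11 (0.972), Pdzd2 (0.961) and Sdhb (0.955), to Irf4 Nhlrc2 (0.953), Csrp2 (0.951) and Arl5a (0.947), to Ebf2 Eml4 (0.90), Blcap (0.864) and Ndufb10 (0.863), and to Zfp516 Limk1 (0.984), Ppa1 (0.978) and Acsl4 (0.976).

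The spread within groups was shared between libraries of the same number. The library numbered 2 was the lowest of its group in 6 of 6 groups for Ppargc1a, Ppargc1b and Ebf2, in 5 for Prdm16, in 4 for Ucp1 and Irf4 and in 1 for Zfp516. Over all 10178 tested genes, 2.12% had this in 6 of 6 groups and 8.1% in at least 5. On the log2 CPM scale, libraries numbered 2 lay on average -0.44 ± 0.26 (SD, 6 groups) from their group mean for Ppargc1a, -0.42 ± 0.22 for Ppargc1b, -0.45 ± 0.24 for Ebf2 and -0.03 ± 0.17 for Zfp516. With these 6 libraries left out, an alternative chosen after seeing the data, 7 members passed for ISO with Dox (14.9% of all genes higher), 5 for SR-3420 with Dox (5.7%), 6 for Dox in ISO (6.98%) and 6 for ISO against SR-3420 (8.7%). For the interactions 2 passed with ISO (2.44% of all genes in either direction) and 1 with SR-3420 (0.544%). For Dox in SR-3420 the count stayed at 3 (6.02%), but Zfp516 no longer passed (0.54, adjusted p = 0.18) and Ebf2 did (0.71, adjusted p = 0.00817). In the other 3 comparisons the calls of members were those given above.

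**Figure D4:**
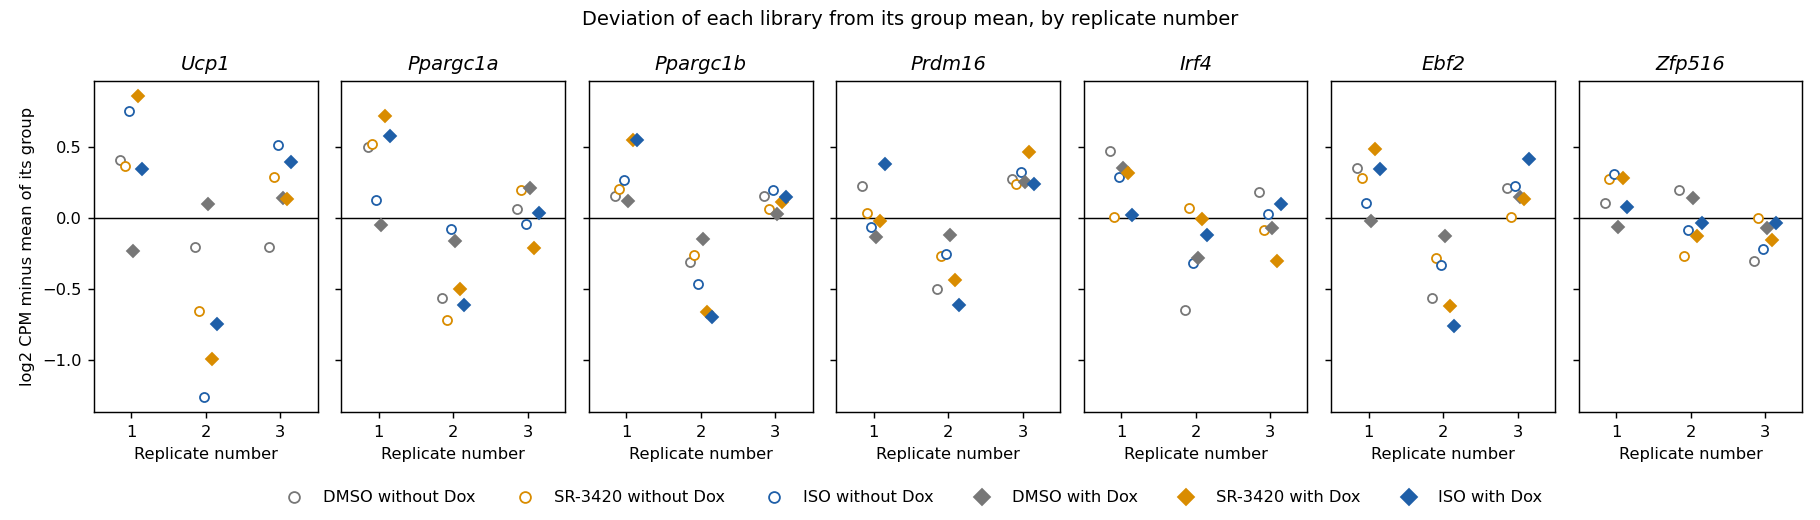
Difference of each library from the mean of its group, in log2 CPM, for the 7 tested genes by replicate number (open circles, without Dox; filled diamonds, with Dox; colour, stimulation). Libraries numbered 2 lie below 0 in all 6 groups for Ppargc1a, Ppargc1b, Prdm16 and Ebf2, and on both sides of 0 for Zfp516.

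Other thermogenic genes changed in both directions. Of 24 other effectors listed, 22 were in the table and 14 were tested, and with Dox ISO raised 5 and lowered 2 of them, against 16.4% and 16.1% of all genes (median 0.66, all genes -0.02). Gyk, a glycerol kinase, rose by 3.84 ± 0.24 on the log2 scale (adjusted p = 6.33e-13), Pdk4, which restrains pyruvate oxidation, by 2.21 ± 0.24, Cidea, a lipid droplet protein of brown fat, by 1.28 ± 0.28, the potassium channel gene Kcnk3 by 0.92 ± 0.16 and, named after its values were seen, the pantothenate kinase gene Pank1 by 1.06 ± 0.25. The fatty acid binding protein gene Fabp3 was lower (-1.69 ± 0.45, adjusted p = 0.00428), as was the fatty acid transporter gene Slc27a1 (-1.12 ± 0.20). SR-3420 with Dox raised 2 of the 14, Pdk4 (2.68 ± 0.24) and Cidea (1.00 ± 0.29), and lowered Gamt, a gene of creatine synthesis (-1.31 ± 0.40, adjusted p = 0.0322), which was named after its values were seen. Of all genes, 6.53% were higher and 3.37% lower there, and with library totals the 665 higher and 343 lower calls became 322 and 701.

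Of 42 other regulators listed, 39 were in the table and 30 were tested, and ISO with Dox raised 8 and lowered 5, against 16.4% of all genes higher and 16.1% lower (median -0.02, all genes -0.02). The corepressor gene Tle3 rose by 1.90 ± 0.17, the cAMP-induced nuclear receptor gene Nr4a1 by 1.59 ± 0.23, Pparg, the master regulator of adipocytes, by 1.04 ± 0.16 and Nrf1, a driver of mitochondrial genes, by 0.59 ± 0.14. The largest rise, also named after its values were seen, was that of Ppara (2.10 ± 0.51, adjusted p = 0.00214). The thyroid hormone receptor gene Thra was lower (-1.71 ± 0.21), as were Creb1 (-1.24 ± 0.33), Rxra (-0.98 ± 0.26), Klf15 (-0.78 ± 0.19) and, named after its values were seen, Zfp423 (-0.59 ± 0.22), a factor of adipocyte commitment. SR-3420 with Dox raised 6 and lowered 3 of the 30, against 6.53% and 3.37% of all genes. The 3 largest rises, named after their values were seen, were those of Ppara, the nuclear receptor PPARα (2.72 ± 0.49, adjusted p = 0.000326), Klf11 (1.67 ± 0.28) and Nrip1, a corepressor gene (1.62 ± 0.35). Of the genes named for ISO, Tle3 (1.41 ± 0.17) and Nrf1 (0.68 ± 0.14) were also higher, and Thra (-0.98 ± 0.20) and Klf15 (-0.81 ± 0.20) were lower. Without Dox ISO raised 5 and lowered 1 of the effectors and raised 5 and lowered 5 of the regulators, against 14.5% of all genes higher and 13.5% lower.

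**Figure D5:**
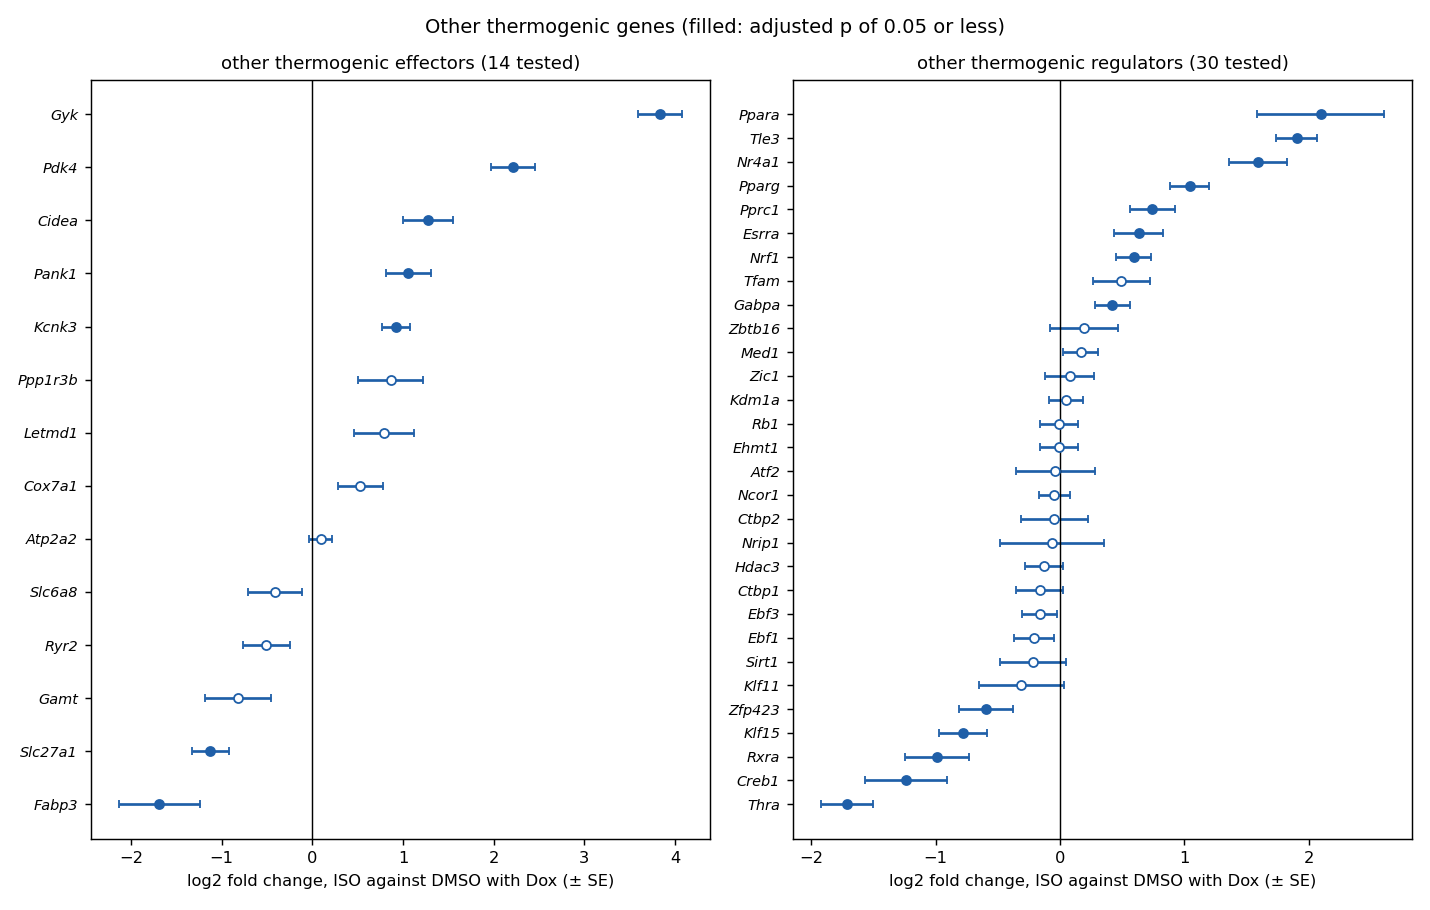
log2 fold change (± SE) of the other tested thermogenic genes for ISO against DMSO with Dox, 14 effectors (left) and 30 regulators (right), in order of their value. Filled symbols had an adjusted p of at most 0.05, from Gyk at 3.84 to Fabp3 at -1.69 on the left and down to Thra at -1.71 on the right.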

How the data were processed

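RNA was measured by RNA-seq in 18 libraries of cultured brown adipocytes, in 6 groups of 3 assigned from the sample titles. By the study's methods the replicates were independent experiments. The authors aligned reads to mm9 with STAR 2.4.2a, used HOMER to keep 1 read per position and length, and obtained the count of each gene from iRNA-seq with its gene option. The submitters' processing notes also name hg19. The deposited table gives raw counts as whole numbers, without normalisation, and every sample column matched a sample. The deposited counted length was within 10% of the annotated intron length for 66.5% of 16388 genes matched to the annotation and within 10% of the exon length for 2.48%, while which bases entered each row was not resolved. Use of strand was not given in the sources used here.

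The quasi-likelihood test of edgeR 4.0.16 (R 4.3.3) was used on these counts (TMM factors from 0.768 to 1.13, filterByExpr, 1 mean per group, no other covariate). This left 10178 genes tested and 7494 not tested. Tests were two-sided, and SEs were derived from the F statistic. CPM used TMM-scaled library sizes, and log2 CPM a prior count of 2. Ucp1, whose DMSO and SR-3420 libraries had at most 5 counts, was also compared by summed counts with exact 95% intervals, which cover counting error only. The script was tested on simulated data.

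The replicate numbers paired the samples: over 5089 genes, deviations from the group means correlated between same-numbered libraries in all comparisons at r over 0.1, except in Dox against no Dox in SR-3420 and the SR-3420 interaction. Of 45 pairs, 42 were over 0.1 (range 0.014 to 0.417, median 0.251). For the comparisons that met this, the block is given beside results whose call it changed. For these 2 exceptions it is given with the effects of processing, and for the SR-3420 interaction also beside the result.

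The members and gene lists were chosen with earlier results of these data known. Named genes were the 8 members, Abhd5, up to 4 genes with the smallest p in each direction per list in ISO against DMSO with Dox and in the ISO interaction, and the 3 genes most alike to each member. Alternatives were RLE factors, library totals, no filter, at least 10 counts in 3 libraries, DESeq2 1.42.0, the replicate block, a log2 fold change limit of 1, and leaving out each library. The promoter window of 1 member is not reported here.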

Additional observations from a re-analysis of the deposited data

Results flagged for a closer look

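Responses that differed between cells with and without Dox by the interaction test of edgeR were looked at again. The interaction is the log2 response with Dox less that without Dox. None of the 8 members is among them in the fit without the replicate block. With the block, Ppargc1b (adjusted p = 0.00147), Ppargc1a (adjusted p = 0.0142) and Irf4 (adjusted p = 0.0175) passed for the ISO interaction. The values below are from the fit without the block. Abhd5 itself had an ISO interaction of -0.98 ± 0.23 (SE, adjusted p = 0.0194), with ISO against DMSO at 1.51 without Dox and 0.52 with Dox. Pdk4 had an ISO interaction of 1.76 ± 0.36 (adjusted p = 0.00616) and an SR-3420 interaction of 1.98 ± 0.36 (adjusted p = 0.00639). Nrf1 had an ISO interaction of 0.84 ± 0.20 (adjusted p = 0.0251), with ISO against DMSO at -0.24 without Dox and 0.59 with Dox, and Ebf1, a relative of Ebf2, had one of 0.96 ± 0.24 (adjusted p = 0.0273), with -1.17 without Dox and -0.21 with Dox. Single libraries were not tested as outliers.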

How the results depend on the processing

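Of 1064 member values recomputed under an alternative, 966 kept their direction and their side of the threshold and 30 took the opposite direction, none of them called in either fit. The replicate block moved members passed from 0 to 2 for SR-3420 without Dox (71 to 197 of all genes higher, 7 to 41 lower). It moved them to 3 for the ISO interaction (164 to 414, 58 to 186) and the SR-3420 interaction (55 to 215, 22 to 124). In the latter Ppargc1b (1.29, adjusted p = 0.000527), Ppargc1a (1.12, adjusted p = 0.0297) and Zfp516 (0.94, adjusted p = 0.0469) passed. The block added Ebf2 (0.58, adjusted p = 0.00635) for Dox in SR-3420 (739 to 1083, 436 to 751). These last 2 comparisons did not meet the pairing check, and in 42 of 45 comparisons of a library with another group the most alike library had the same number. The block changed no member call other than these and those given with the results.

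Without the filter on low counts, 15973 genes were tested. There 1 member passed for SR-3420 without Dox (over all genes 148 higher and 9 lower). For the ISO interaction 3 members passed (238 and 120), and for the SR-3420 interaction 2 (94 and 62). Prdm16 and Ebf2 in ISO and Ebf2 in SR-3420 passed for Dox in this fit, and Ppargc1b passed for ISO against SR-3420. The cause was not tested. For SR-3420 with Dox, 2 members passed with library totals, against 322 of all 10178 genes higher. With the fold change limit 2 passed, against 214 of all 10178 genes higher. With 1 library, or the libraries numbered 2, left out, between 10294 and 10467 genes were tested. For SR-3420 with Dox 1 to 5 members passed (470 to 602 of all genes higher), and for Dox in SR-3420 1 to 4 (535 to 632 higher). For the ISO interaction 0 to 2 passed (111 to 301 of all genes in either direction), and for the SR-3420 interaction 0 to 1 (28 to 68).

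Scaling by library totals moved the median of all genes to -0.186 for ISO without Dox, -0.157 for ISO with Dox, -0.207 for SR-3420 with Dox, -0.225 for Dox in SR-3420 and -0.144 for the SR-3420 interaction. The share of calls that were higher moved from 51.7% to 30.2%, from 50.4% to 34.7%, from 66% to 31.5%, from 62.9% to 22.5% and from 71.4% to 38.1% in that order, and for the ISO interaction from 73.9% to 84.6%. Higher calls over all genes fell with library totals from 1471 to 838 for ISO without Dox, from 1669 to 1111 for ISO with Dox, from 665 to 322 for SR-3420 with Dox, from 71 to 33 for SR-3420 without Dox, from 739 to 334 for Dox in SR-3420 and from 55 to 16 for the SR-3420 interaction. Without the filter they rose from 71 to 148 for SR-3420 without Dox, from 111 to 178 for Dox in DMSO and from 55 to 94 for the SR-3420 interaction. With library totals lower calls rose from 343 to 701 for SR-3420 with Dox and from 436 to 1153 for Dox in SR-3420. The block moved higher calls from 665 to 1000 for SR-3420 with Dox and from 111 to 220 for Dox in DMSO. With any 1 library left out, calls in either direction over all genes ran from 28 (without DMSO without Dox replicate 1) to 53 for SR-3420 without Dox, against 78 with all libraries. They ran from 28 (without SR-3420 without Dox replicate 3) to 68 for the SR-3420 interaction, against 77, from 111 (without DMSO without Dox replicate 1 or ISO with Dox replicate 1) to 301 for the ISO interaction, against 222, and from 77 (without DMSO without Dox replicate 1) to 143 for Dox in DMSO, against 120. Without SR-3420 with Dox replicate 1 they were 639 for SR-3420 with Dox, against 1008, and 757 for Dox in SR-3420, against 1175.

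Opposite directions came with library totals for Ppargc1a in SR-3420 without Dox (-0.006), Irf4 in SR-3420 with Dox (-0.134) and Ucp1 in the SR-3420 interaction (-0.117). Ebf2 in ISO against SR-3420 took 0.001 with RLE factors, 0.077 with library totals, 0.023 without the filter, 0.014 with the stricter filter and 0.013 with DESeq2. With libraries left out, it ran from -0.241 to 0.322. Ebf2 ran from -0.024 to 0.355 for SR-3420 without Dox and from -0.026 to 0.508 for the SR-3420 interaction, Irf4 from -0.354 to 0.182 for Dox in DMSO and from -0.118 to 0.347 for SR-3420 with Dox, and Ppargc1a from -0.288 to 0.356 and Zfp516 from -0.341 to 0.062 for SR-3420 without Dox. Prdm16 ran from -0.106 to 0.36 for the SR-3420 interaction. Ucp1, at its low counts, ran from -0.074 to 1.57 for Dox in SR-3420, from -1.30 to 1.32 for the ISO interaction and from -2.07 to 0.646 for the SR-3420 interaction.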
